A study of Mus musculus with 10 samples.

Results

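The genes described here are Ppara, which encodes the nuclear receptor PPARalpha, and 39 genes of fatty acid oxidation and PPARalpha response, measured by bulk RNA-seq in the livers of 10 mice. They were chosen by symbol from the enzymes of mitochondrial and peroxisomal beta-oxidation, omega-oxidation and ketone body metabolism and from targets of PPARalpha, and the rule used no measured value, although earlier results of these data were known when they were chosen. All 40 were found among the 55291 genes of the count table, and 39 of them were among the 17015 genes that passed a filter on low counts and could be tested. The exception was Cyp4a12a, a fatty acid hydroxylase known for its male-biased expression, which reached at most 0.150 CPM (counts scaled to a common library size) in these female livers.

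The mice were females of 16 to 20 weeks that carried a Cas9 Lox-Stop-Lox allele and were given an AAV8-U6-sgRNA-TBG-Cre virus. The guide was either a non-targeting control (NTC) or directed at Bap1 (sgBap1), a nuclear deubiquitinase. 10 days later they were injected with olive oil (Veh) or with carbon tetrachloride in olive oil (CCl4), a hepatotoxin that pericentral hepatocytes convert to a reactive form, and livers were taken after 48 h. There were 3 mice in each CCl4 group (sgBap1-CCl4 and NTC-CCl4) and 2 in each vehicle group (sgBap1-Veh and NTC-Veh). TBG is a hepatocyte promoter, so Cas9 and the guide act in hepatocytes that took up the virus, while the RNA came from all cells of the tissue. Bap1 itself stood at 29.5 to 34.8 CPM in the 5 NTC livers and at 16.99 to 21.8 CPM in the 5 sgBap1 livers, with no overlap, and was 1.88-fold lower with vehicle (adjusted p = 0.0208) and 1.57-fold lower with CCl4 (adjusted p = 0.0295).

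In the liver, PPARalpha pairs with the retinoid X receptor RXR on direct repeats of a hexamer spaced by 1 base (DR1 elements) and, when fatty acids or fibrates bind it, raises the genes that take up, activate and burn fatty acids, above all in fasting. Mitochondria shorten long chains that carnitine brings in, peroxisomes shorten very long and branched chains, and the Cyp4a enzymes hydroxylate the far (omega) end of a chain. The acetyl-CoA formed is made into ketone bodies for other organs.

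Totals were 3.30e+07 to 5.22e+07 estimated counts per mouse, and 3 counts corresponded to 0.0511 to 0.112 CPM. The labelled tissue matched its markers: all 16 hepatocyte markers were tested and their summed level was 94754 to 191811 CPM. The mouse sgBap1-CCl4 2 stood apart. Its 10 adipocyte markers summed to 625 CPM against 23.8 to 38.2 CPM in the other 9 mice, and 6 of those markers (Adipoq, Plin1, Cfd, Retn, Lep and Ucp1) had at most 3 counts in each of the other 9. Some of the values that this mouse moved are given with and without it below. Replicates are separate mice. Unless another fit is named, adjusted p-values are from edgeR's quasi-likelihood test, two-sided, adjusted over 17015 genes. Those of DESeq2 and of other fits were adjusted over the genes that each tested. A gene is said to rise, fall or be called only at an adjusted p under 0.05.

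Promoters were examined for DR1 elements because PPARalpha binds there. RefSeq gave a window of 250 bases before to 50 bases after the start site for 31 of the 40 genes (GRCm38.p6). Crat, Acaa2, Decr1, Hsd17b4, Cyp4a10, Cyp4a12a, Cyp4a14, Cyp4a31 and Vnn1 had no entry. An exact match of AGGNCANAGGNCA on either strand was found in 1 of the 31 genes, Fabp1, against 122 of all 27025 genes with a window (0.451%). The upstream stretch of Fabp1, at chr6:71199629-71199826 on the plus strand, from 250 to 53 bases before the RefSeq start site and ending where GENCODE vM21 begins the gene, is shown with the element in capitals. The element reads on the minus strand and lies at chr6:71199812-71199824:
Fabp1: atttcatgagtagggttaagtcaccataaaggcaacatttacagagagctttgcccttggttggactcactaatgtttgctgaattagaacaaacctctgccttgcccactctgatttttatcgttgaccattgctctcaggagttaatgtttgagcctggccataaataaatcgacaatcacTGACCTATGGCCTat

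A looser search, AGGTCANAGGTCA with at most 3 mismatches over the 12 half-site bases, matched 13 of the 31 genes against 27.3% of all genes. Some genes have more than 1 RefSeq start and window, and a match in any counted. The closest 5 had at most 2 mismatches and are shown for comparison with the element of Fabp1. Capitals mark the bases that equal AGGTCA in either half-site, and lower case marks mismatches and the spacer, each read on the strand of the match:
Fabp1: AGGcCAtAGGTCA
Creb3l3: AGGggAgAGGTCA
Slc25a20: AGGTgAaAGGTCg
Echs1: AGGTCAcgGGTCc
Acot4: cGGcCAaAGGTCA
They began 67 bases before the start site in Fabp1, 209 before it in Creb3l3, 83 before it in Echs1, 13 before it in Acot4 and at base 7 after it in Slc25a20. The Creb3l3 match belongs to a RefSeq start inside the gene, and the window at the gene's outer start held no closer match than 4 mismatches. These matches are a description of letters. With CCl4 in NTC livers all 5 genes fell, as did 33 of the 39 tested, and by differing amounts. Acot4 changed by -2.18, Echs1 by -1.22, Fabp1 by -0.87, Creb3l3 by -0.60 and Slc25a20 by -0.55 on the log2 scale. Whether the matches bear on these changes was not tested.

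Levels between genes were compared per kb of annotated exon. In NTC-Veh livers Fabp1, the fatty acid binding protein of the hepatocyte cytosol, was the highest of the 40 at 9363 ± 819 CPM per kb (SD, n = 2). It was followed by Acaa2, the last enzyme of the mitochondrial spiral, at 621 ± 31.8, by Slc27a2, a very long chain acyl-CoA synthetase, at 469 ± 21.9 and by Acaa1b, a peroxisomal thiolase, at 386 ± 39.5. Cyp4a10 (315 ± 24.3) and Cyp4a14 (262 ± 48.1) came next, and these neighbours differed by little more than their SDs. At the low end stood Acot1 (6.01 ± 0.00561), Acot2 (4.13 ± 0.282) and Pdk4 (2.08 ± 0.939 CPM per kb).

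**Figure D1:**
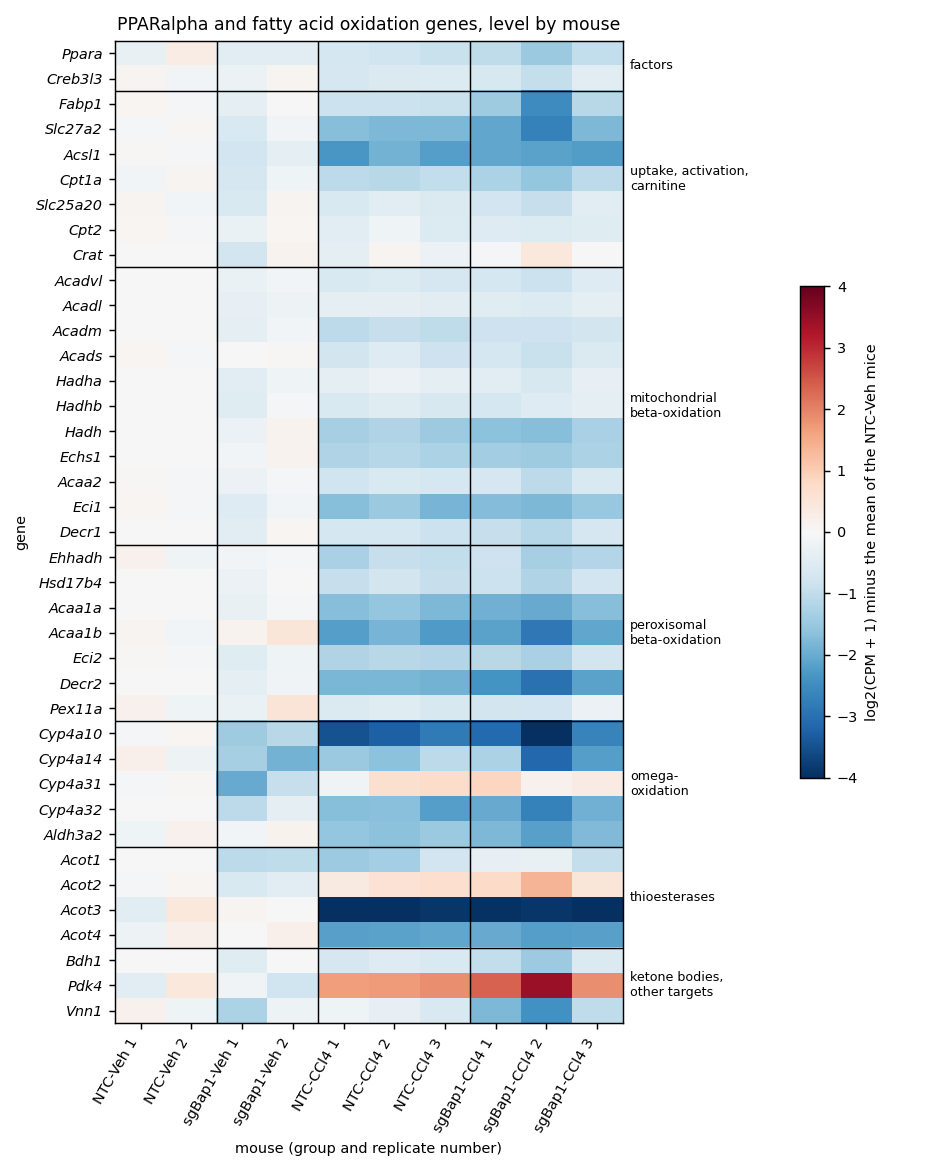
Level of the 39 tested genes (rows, grouped by role) in each of the 10 mice (columns), as log2(CPM + 1) minus the mean of the NTC-Veh mice, with red higher and blue lower and values beyond 4 drawn at the end of the scale. The 6 CCl4 columns are blue for most genes, Pdk4 and Acot2 are red there, and the Cyp4a genes and Acot1 are already pale blue in both sgBap1-Veh mice.

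The first question was what CCl4 did to these genes in livers with intact Bap1. CCl4 lowered most of them: in NTC livers 33 of the 39 tested fell (84.6%), against 26.6% of all genes tested, and 1 rose, Pdk4 (2.56%, against 27.4% of all genes). In 35 of 39 genes every NTC-CCl4 mouse lay below both NTC-Veh mice, against 35% of all genes tested, and in 2 every one lay above, against 36.7%. The median change was -0.87 on the log2 scale, against 0.03 over all genes tested, and single genes ranged from -4.47 (Acot3) to 1.83 (Pdk4). In sgBap1 livers, which share no mouse with that comparison, 28 of 39 fell (71.8%, against 28% of all genes tested) and 3 rose, Pdk4, Acot2 and Cyp4a31 (7.69%, against 29%). Groups were separated downward in 28 genes there (34.9% of all genes tested) and upward in 4 (37.3%). The median there was -0.74, against 0.04 over all genes tested. 27 genes fell in both, 37 of 39 had the same sign, and over the 39 genes the changes in the 2 genotypes had a Pearson r of 0.91 and a Spearman rho of 0.84, as a description of genes that are not independent. The same figures were not computed over all genes tested, so whether this agreement is particular to the 39 was not tested. Without sgBap1-CCl4 2, 27 fell and 3 rose in sgBap1 livers.

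These directions rest on TMM normalization, whose factors were 0.786 to 0.851 in the Veh mice and 1.08 to 1.24 in the CCl4 mice. Scaling by library size alone moved the median of all genes to 0.50 in NTC and to 0.52 in sgBap1 livers. Relative to that shift the genes still lay lower, with medians of -0.39 and -0.27. With library size alone 19 rather than 33 fell in NTC livers, where 12.1% of all genes tested fell. In sgBap1 livers 18 rather than 28 fell, where 14% of all genes did. Cpt2, Acadl and Hadha turned positive in both genotypes. In sgBap1 livers Acadl (0.28, adjusted p = 0.0152) and Hadha (0.31, adjusted p = 0.0219) were then called higher by edgeR. Calls were then also lost for Ppara, Creb3l3, Acadvl, Acaa2, Decr1 and Bdh1 in both genotypes, for Fabp1, Slc25a20, Acads, Hadhb and Cyp4a14 in NTC and for Acadm, Eci2 and Pex11a in sgBap1 livers.

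**Figure D2:**
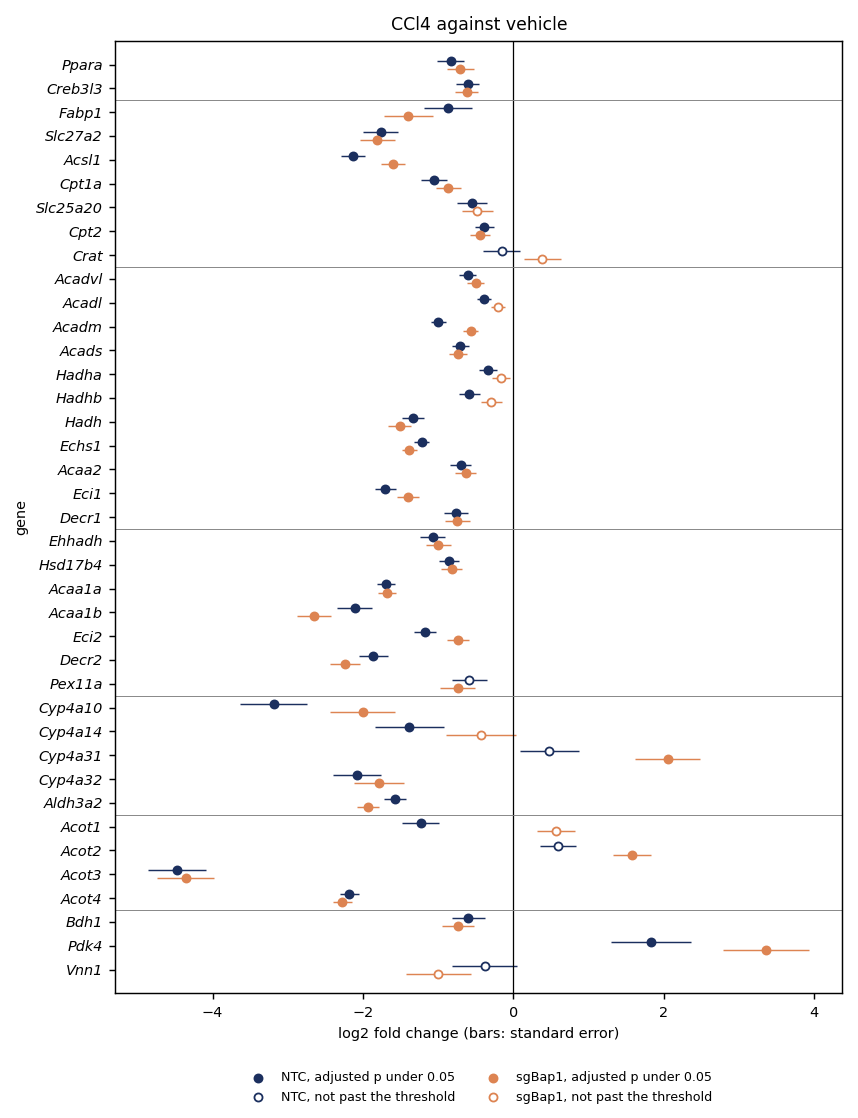
Log2 fold change of CCl4 against vehicle for each gene in NTC livers (dark blue, 3 against 2 mice) and in sgBap1 livers (orange, 3 against 2), with standard error bars and open symbols where the adjusted p was not under 0.05. Nearly all points lie left of 0 in both genotypes, Acot3 lies furthest left, and Pdk4, Acot2 and Cyp4a31 lie right of 0.

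Both transcription factors fell. Ppara was 92.0 and 138 CPM in the NTC-Veh mice and 60.2, 64.8 and 68.2 CPM in the NTC-CCl4 mice, a change of -0.83 ± 0.18 (SE, log2, adjusted p = 0.00319). In sgBap1 livers it went from 81.8 and 83.2 CPM to 39.6, 55.6 and 56.7 CPM, a change of -0.70 ± 0.18 (adjusted p = 0.00773). The groups did not overlap in either genotype. Creb3l3, a liver-enriched factor processed in the Golgi that acts with PPARalpha in fasting, changed by -0.60 ± 0.15 in NTC (adjusted p = 0.00739) and by -0.62 ± 0.15 in sgBap1 livers (adjusted p = 0.00619). Its call was lost without NTC-Veh 1 in NTC and without sgBap1-Veh 2 in sgBap1 livers. In bulk RNA, fewer hepatocytes and less of a transcript per hepatocyte cannot be told apart, and this applies to every gene below.

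Among the 7 genes that take up, activate and shuttle fatty acids, 6 fell in NTC and 5 in sgBap1 livers. Acsl1, the main long chain acyl-CoA synthetase of hepatocytes, stood at 1191 and 1274 CPM in NTC-Veh and at 244, 267 and 333 CPM in NTC-CCl4 mice. It fell 4.38-fold in NTC (-2.13 ± 0.16, adjusted p = 4.28e-06) and 3.03-fold in sgBap1 livers (-1.60 ± 0.16, adjusted p = 1.9e-05), where it went from 720.2 and 959.7 CPM to 263, 276 and 293 CPM. Every CCl4 mouse lay far below every vehicle mouse. Slc27a2 fell 3.40-fold in NTC and 3.496-fold in sgBap1 livers, from 1146 to 1818 CPM over the 4 vehicle mice to 267 to 537 CPM over the 6 CCl4 mice. Cpt1a, the gate for long chains into mitochondria, fell 2.07-fold (adjusted p = 0.00051) and 1.82-fold (adjusted p = 0.00167).

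Fabp1 was 4858 and 5498 CPM in NTC-Veh and 2792, 2851 and 2878 CPM in NTC-CCl4 mice (-0.87 ± 0.32, adjusted p = 0.044). In sgBap1-Veh mice it was 3912 and 5239 CPM and in sgBap1-CCl4 mice 901, 1937 and 2382 CPM (-1.39 ± 0.32, adjusted p = 0.00432). The groups did not overlap, and the lowest value, 901 CPM, belonged to sgBap1-CCl4 2. Without that mouse the sgBap1 change was -1.08 (adjusted p = 0.000421). The NTC call was near the threshold and was kept only in the fits without sgBap1-CCl4 2 or without sgBap1-CCl4 3, of the 10 fits that each left out 1 mouse. Cpt2, which removes carnitine inside mitochondria, fell (-0.38 and -0.44 on the log2 scale), directions that turned with library size alone. Slc25a20, the carnitine carrier, fell by 0.55 in NTC livers and was not called in sgBap1 livers (-0.48, adjusted p = 0.0701). There it ranged from -0.79 to -0.07 when 1 mouse was left out, and it was called without sgBap1-Veh 1, without sgBap1-CCl4 3 and by DESeq2 (adjusted p = 0.0496). The interaction for it was 0.07 ± 0.29 (adjusted p = 0.961). The NTC calls of Cpt2 and Slc25a20 were lost without either NTC-Veh mouse, without NTC-CCl4 1 or without NTC-CCl4 3, and that of Slc25a20 also without NTC-CCl4 2 or sgBap1-CCl4 1. The sgBap1 call of Cpt2 was lost without sgBap1-Veh 2. Crat, which makes acetylcarnitine, was not called in either (-0.15 ± 0.24 and 0.39 ± 0.25), and its NTC value turned to 0.32 with library size alone. In sgBap1 livers Crat ranged from 0.02 to 0.89 when 1 mouse was left out, and it was called higher without sgBap1-Veh 2 (adjusted p = 0.0111), with a replicate block (adjusted p = 0.0411) and with library size alone (adjusted p = 0.016).

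All 11 genes of mitochondrial beta-oxidation fell in NTC livers and 8 of 11 fell in sgBap1 livers, with median changes of -0.70 and -0.63. The largest falls were those of Eci1, which moves double bonds of unsaturated chains (3.25-fold in NTC, 2.64-fold in sgBap1), of the 3-hydroxyacyl-CoA dehydrogenase Hadh (2.52-fold and 2.84-fold) and of the hydratase Echs1 (2.33-fold and 2.61-fold). Hadh was 421 and 437 CPM in NTC-Veh and 155, 171 and 185 CPM in NTC-CCl4 mice, and 362 and 473 CPM against 129.9, 137 and 173 CPM with sgBap1. The CCl4 mice of both genotypes lay in 1 range below all vehicle mice.

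Acyl-CoA dehydrogenases start each round of the spiral, each at its own chain length. Acadm, for medium chains, went from 377 and 383 to 185, 187 and 199 CPM in NTC livers (1.99-fold, adjusted p = 2.08e-05) and from 294 and 349 to 213, 215 and 225 CPM in sgBap1 livers (1.48-fold, adjusted p = 8e-04). Acads, for short chains, fell 1.63-fold and 1.66-fold, and Acadvl, for very long chains, fell 1.52-fold and 1.41-fold. Acadl, for long chains, fell 1.31-fold in NTC (adjusted p = 0.00527) and was not called in sgBap1 livers (-0.20 ± 0.09, adjusted p = 0.0967). The 2 subunits of the trifunctional protein showed the same pattern of calls: Hadha fell by 0.34 and Hadhb by 0.58 in NTC, and in sgBap1 livers they changed by -0.16 ± 0.12 and -0.29 ± 0.14 without a call. Hadhb was called there without sgBap1-Veh 1 or without sgBap1-CCl4 3, and Acadl by DESeq2. With library size alone Acadl and Hadha turned in both genotypes and were called higher in sgBap1 livers, where Hadhb turned without a call. The NTC call of Hadha was lost without either NTC-Veh mouse, without NTC-CCl4 1 or 3 or without sgBap1-CCl4 1. None of the 3 passed the threshold in the interaction, so no difference between genotypes was shown. Acaa2 fell 1.62-fold and 1.55-fold and Decr1, the mitochondrial dienoyl-CoA reductase, 1.70-fold and 1.67-fold.

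The 7 peroxisomal genes had a lower median than the mitochondrial ones, -1.17 in NTC and -0.995 in sgBap1 livers, with 6 and 7 of 7 called lower. Acaa1b fell 4.32-fold in NTC, from 702 and 811 CPM to 155, 165 and 205 CPM (adjusted p = 3.72e-05), and 6.27-fold in sgBap1 livers, from 833 and 1060.3 CPM to 103, 171 and 179 CPM (adjusted p = 9.77e-06). The vehicle and CCl4 mice were separated by a wide gap. Its neighbour in sequence Acaa1a fell 3.23-fold and 3.21-fold. Since 30.5% of the 50-base stretches of Acaa1b also occur in Acaa1a, the split of reads between the pair is uncertain.

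Decr2, the peroxisomal dienoyl-CoA reductase, fell 3.63-fold in NTC and 4.70-fold in sgBap1 livers. Ehhadh, the bifunctional enzyme, fell 2.10-fold and 1.99-fold, and Hsd17b4, the other bifunctional enzyme, 1.81-fold and 1.76-fold. Eci2 fell 2.25-fold and 1.67-fold. Pex11a, which promotes peroxisome division, was at 68.4 and 86.9 CPM in NTC-Veh and at 49.2 to 54.4 CPM in NTC-CCl4 mice, and its change of -0.59 ± 0.23 missed the threshold (adjusted p = 0.0576), which it passed without either sgBap1-Veh mouse, without sgBap1-CCl4 3, by DESeq2 and with only the groups compared. In sgBap1 livers it was called (-0.74 ± 0.23, adjusted p = 0.022) although the groups overlapped by 1 mouse, and it was not called without sgBap1-Veh 2 (adjusted p = 0.297), without sgBap1-CCl4 1 or without sgBap1-CCl4 2 (adjusted p = 0.0721).

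Omega-oxidation genes split. The Cyp4a genes lie within 323 kb of chromosome 4 (GENCODE vM21, GRCm38), in the order Cyp4a12a, Cyp4a14, Cyp4a10, Cyp4a31 and Cyp4a32. Cyp4a10, a classical PPARalpha target, was 628 and 700.2 CPM in NTC-Veh and 59.0, 68.3 and 91.8 CPM in NTC-CCl4 mice, a 9.10-fold fall (-3.19 ± 0.45, adjusted p = 0.00044). In sgBap1 livers it went from 247 and 309 CPM to 29.2, 76.5 and 103 CPM, a 4.003-fold fall (-2.001 ± 0.43, adjusted p = 0.00445). The CCl4 mice reached a like range from a lower start with sgBap1. Without sgBap1-CCl4 2, which held the lowest value, the sgBap1 change of Cyp4a10 was -1.63 (adjusted p = 0.000281). Cyp4a32 fell 4.24-fold and 3.45-fold, but 43.8% of its 50-base stretches occur in other genes, most in Cyp4a10, so its counts are uncertain. Of the 50-base stretches of Cyp4a10, 29.8% occur in other genes, with 24.5% in Cyp4a32, so the split of reads between the pair is uncertain.

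Cyp4a14 fell 2.61-fold in NTC (adjusted p = 0.0335), from 594 and 771 CPM to 218, 243 and 325 CPM, and was not called in sgBap1 livers, where 183 and 268 CPM stood against 76.4, 145 and 281 CPM (-0.43 ± 0.47, adjusted p = 0.458) and the value turned to 0.02 with library size alone. It was called there without sgBap1-CCl4 1 (-1.03, adjusted p = 0.0301) and was -0.08 without sgBap1-CCl4 2. The interaction for it was 0.95 ± 0.66 (adjusted p = 0.696). The NTC call was lost without either NTC-Veh mouse (each alone), without NTC-CCl4 1, without NTC-CCl4 2 or without sgBap1-CCl4 3. Cyp4a31 went the other way. It was 14.8 and 15.9 CPM in NTC-Veh and 13.9, 24.3 and 26.1 CPM in NTC-CCl4 mice, which overlapped (0.48 ± 0.39, adjusted p = 0.337), and it rose 4.16-fold in sgBap1 livers from 3.04 and 7.67 CPM to 17.5, 19.8 and 28.5 CPM (2.06 ± 0.43, adjusted p = 0.00375). Part of Cyp4a31 (20.6% of its 50-base stretches) is shared with other genes. Aldh3a2, the aldehyde dehydrogenase that acts on fatty aldehydes, fell 2.98-fold and 3.81-fold.

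The 4 acyl-CoA thioesterases, which release free fatty acids from acyl-CoA, lie on the plus strand of chromosome 12 within 72.5 kb, in the order Acot2, Acot1, Acot4 and Acot3, and they moved in opposite directions. Acot3, a peroxisomal enzyme, showed the largest fall of all 39 genes. It was 119 and 214 CPM in NTC-Veh and 4.96, 7.74 and 9.92 CPM in NTC-CCl4 mice, a 22.2-fold fall (-4.47 ± 0.38, adjusted p = 2.8e-05), and 162 and 174 against 5.25, 9.40 and 9.83 CPM with sgBap1, a 20.5-fold fall (-4.36 ± 0.38, adjusted p = 2.87e-05). Acot4, also peroxisomal, fell 4.53-fold in NTC (adjusted p = 1.53e-06) and 4.84-fold in sgBap1 livers (adjusted p = 9.88e-07), and its 6 CCl4 mice lay between 41.5 and 47.9 CPM. Acot3 and Acot4 overlap another annotated gene on the same strand, Gm49366, which the counts may not separate from them.

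Acot2 is the mitochondrial form. Its NTC-CCl4 mice stood at 12.003, 14.2 and 15.04 CPM above NTC-Veh mice at 8.63 and 9.50 CPM, with an adjusted p of 0.0561, and it rose 2.99-fold in sgBap1 livers from 5.57 and 6.47 CPM to 13.03, 16.2 and 24.6 CPM (1.58 ± 0.25, adjusted p = 0.000452). Without sgBap1-CCl4 2, which held the highest value, the rise was 1.28 on the log2 scale (adjusted p = 0.000113), and the NTC change of 0.60 was then called (adjusted p = 0.00554), as it was without sgBap1-CCl4 3, with a replicate block, with only the groups compared, with library size alone and by DESeq2. Acot1, the cytosolic form, was 23.5 and 23.6 CPM in NTC-Veh mice and 8.02, 8.57 and 13.6 CPM in NTC-CCl4 mice, a 2.35-fold fall (adjusted p = 0.00207). In sgBap1 livers it was 10.9 and 11.1 CPM with vehicle and 11.6, 18.4 and 18.9 CPM with CCl4 (0.57 ± 0.25, adjusted p = 0.0838), and it was called higher there without NTC-CCl4 3, without sgBap1-CCl4 3 and with library size alone. The groups did not overlap in either genotype, and they were separated in opposite directions. Acot1 and Acot2 share sequence (24.5% of the 50-base stretches of Acot2 occur in Acot1), so the split of reads between them is uncertain.

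**Figure D3:**
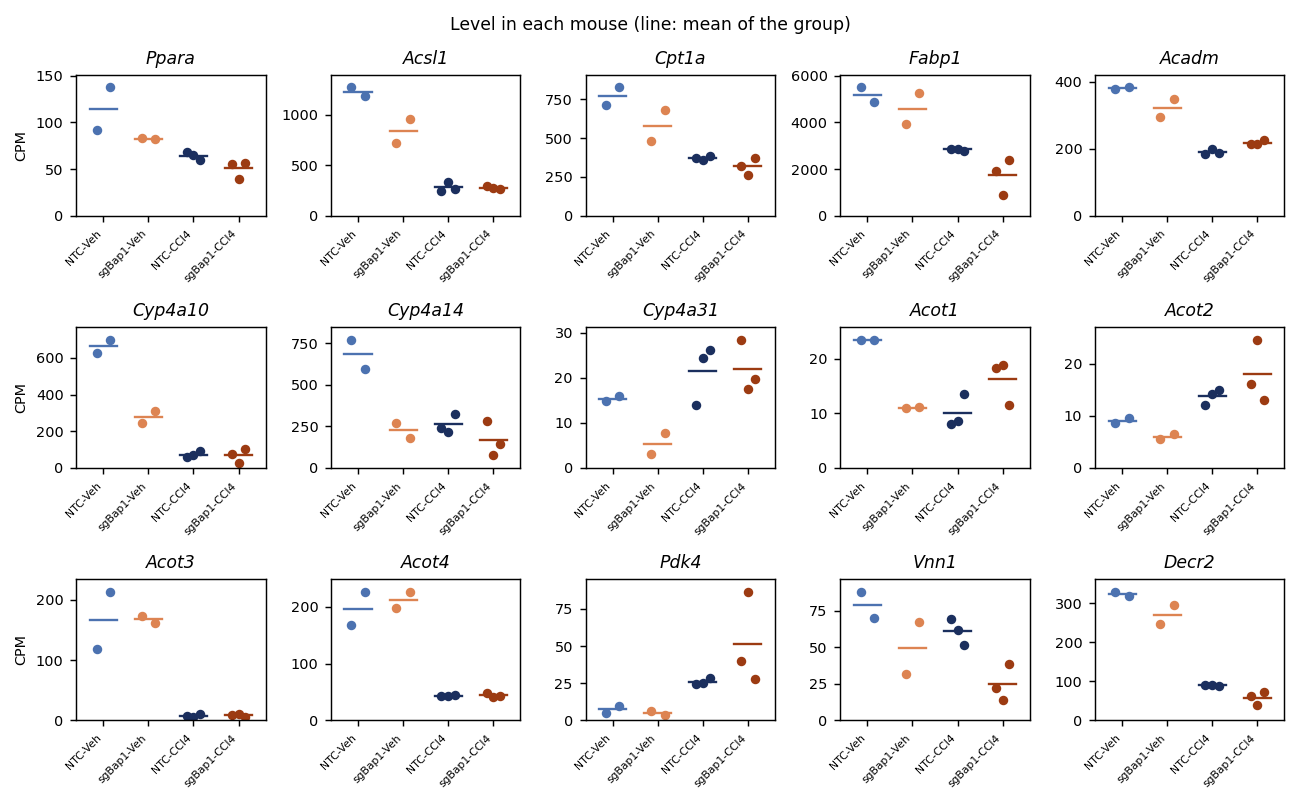
Level in CPM of 15 genes in each mouse (points), with the mean of each group as a line and linear axes from 0. Acot3 and Acot4 drop to a narrow low range in all 6 CCl4 mice, Pdk4 and Acot2 are higher there, and Cyp4a10, Cyp4a14, Cyp4a31 and Acot1 are lower in both sgBap1-Veh than in both NTC-Veh mice.

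Pdk4, the kinase that shuts pyruvate out of oxidation when fat is burned, rose. It was 4.98 and 9.64 CPM in NTC-Veh and 24.6, 25.2 and 28.2 CPM in NTC-CCl4 mice (1.83 ± 0.53, adjusted p = 0.0194), a call that was lost without NTC-Veh 1 (adjusted p = 0.123). In sgBap1 livers it rose from 3.59 and 6.27 CPM to 27.8, 40.03 and 86.6 CPM (3.37 ± 0.57, adjusted p = 0.00145), with the highest value in sgBap1-CCl4 2 and a rise of 2.77 without that mouse (adjusted p = 0.000496). That is the mouse whose adipocyte markers stood apart, and their part in its values was not tested. Bdh1, the ketone body dehydrogenase, fell 1.51-fold and 1.66-fold. The NTC call of Bdh1 was lost without any of the 5 NTC mice or without sgBap1-CCl4 1, and its sgBap1 call was lost without sgBap1-Veh 2. Vnn1, a pantetheinase induced by PPARalpha ligands, was not called in either (-0.38 ± 0.43 and -0.997 ± 0.43), and its NTC value turned to 0.10 with library size alone. In sgBap1 livers Vnn1 was called lower without sgBap1-Veh 1 or without sgBap1-CCl4 3.

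On the TMM scale, markers of hepatocytes and their zones moved with these falls. The summed level of 16 hepatocyte markers was 145287 to 191811 CPM in vehicle and 94754 to 121983 CPM in CCl4 mice, and 11 of 16 fell in NTC and 7 of 16 in sgBap1 livers. The size of that fall rests on TMM. As a share of all counts, the hepatocyte markers were 13.8 to 15.1% in NTC-Veh and 12.2 to 13.3% in NTC-CCl4 mice. With sgBap1 the shares overlapped, at 12.1 to 12.2% with vehicle and 11.7 to 13.6% with CCl4. The 10 pericentral markers summed to 13569 to 17631 CPM with vehicle and to 1386 to 1799 CPM with CCl4, and 9 of 10 fell in both genotypes. The 9 periportal markers summed to 5040 to 7273 CPM against 2260 to 3388 CPM, with 6 and 7 of 9 lower. The pericentral and periportal shares of all counts were also lower in all CCl4 than in all vehicle mice. Macrophage markers summed to 259 and 393 CPM in NTC-Veh, 517 and 762 CPM in sgBap1-Veh and 1111 to 1612 CPM in the CCl4 mice. Of these 12 markers, 8 rose and 0 fell with CCl4 in NTC livers, while 6 rose and 3 fell in sgBap1 livers. The 40 genes together summed to 18605 and 19341 CPM in NTC-Veh, 14081 and 17855 CPM in sgBap1-Veh, 8649 to 9110 CPM in NTC-CCl4 and 5501 to 8420 CPM in sgBap1-CCl4 mice, with the lowest sum in sgBap1-CCl4 2. The part of cell composition in these values was not tested. No marker list had a gene at 0 in every mouse.

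**Figure D4:**
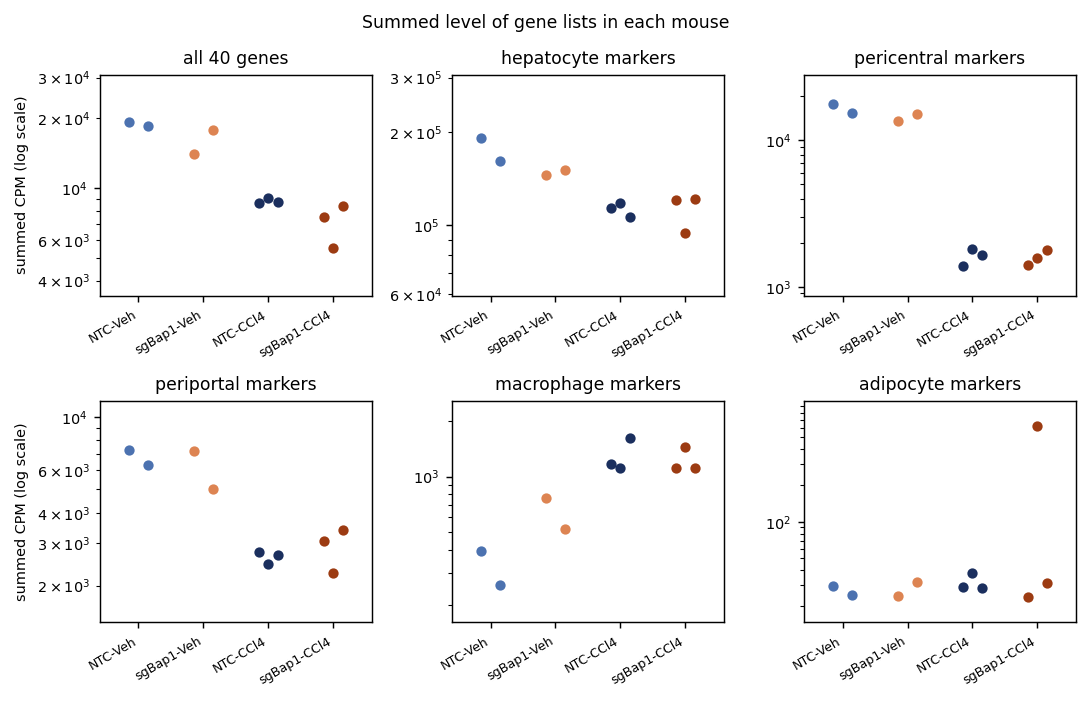
Summed CPM in each mouse (points, log axes) of the 40 genes and of 5 lists of cell type markers. The sums of the 40 genes and of the hepatocyte, pericentral and periportal markers are lower in all CCl4 mice than in all vehicle mice. The macrophage sum is higher, although in sgBap1 livers 3 of its 12 genes fell and 6 rose. The adipocyte sum of 625 CPM is that of sgBap1-CCl4 2. The levels are on the TMM scale, and as shares of all counts the hepatocyte markers of sgBap1-Veh and sgBap1-CCl4 mice overlapped.

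The next question was whether loss of Bap1 alone changed these genes. With vehicle, sgBap1 livers had lower levels of most of them, but none passed the threshold: edgeR called 0 of 39, against 0.406% of all genes tested. DESeq2's Wald test called 2 lower, Acot1 and Cyp4a31, and called 1.07% of all genes it tested lower and 2.73% higher. At an unadjusted p under 0.05 there were 8, all lower (5.25% of all genes were lower and 7.09% higher at that level): Ppara, Acsl1, Acadl, Hadha, Cyp4a10, Cyp4a14, Cyp4a31 and Acot1. In 22 of 39 genes both sgBap1-Veh mice lay below both NTC-Veh mice, against 19.2% of all genes tested, and in 1, Acaa1b, both lay above, against 21.7%. The median change was -0.24, against 0.02 over all genes tested, and it was -0.0947 without sgBap1-Veh 1 and -0.404 without sgBap1-Veh 2.

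The 4 largest differences were in Cyp4a genes and Acot1. Cyp4a14 was 183 and 268 CPM with sgBap1 against 594 and 771 CPM with NTC (-1.60 ± 0.53, adjusted p = 0.259). Cyp4a31 was 3.04 and 7.67 CPM against 14.8 and 15.9 CPM (-1.55 ± 0.46, adjusted p = 0.208), and Cyp4a10 was 247 and 309 CPM against 628 and 700.2 CPM (-1.26 ± 0.48, adjusted p = 0.344). Cyp4a10 was called lower in the fit without sgBap1-CCl4 2 (adjusted p = 0.045), a mouse of neither group compared. Acot1 was 10.9 and 11.1 CPM against 23.5 and 23.6 CPM (-1.09 ± 0.28, adjusted p = 0.131), and Acot2 was 5.57 and 6.47 against 8.63 and 9.50 CPM (-0.59 ± 0.27, adjusted p = 0.409). In each of these 5 genes the groups did not overlap. Acot3 and Acot4, in the same cluster as Acot1 and Acot2, differed by 0.01 ± 0.39 and 0.11 ± 0.14.

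Of the other genes, Ppara was 81.8 and 83.2 CPM against 92.0 and 138 CPM (-0.48 ± 0.20, adjusted p = 0.374), and Acsl1 was 720.2 and 959.7 CPM against 1191 and 1274 CPM (-0.55 ± 0.18, adjusted p = 0.221). The 11 mitochondrial genes ranged from -0.30 (Hadha) to 0.02 (Echs1), and the 7 peroxisomal genes from -0.31 (Eci2) to 0.32 (Acaa1b). The mice sgBap1-Veh 1 and 2 differed from each other: for example Vnn1 was 31.9 and 67.4 CPM and Crat 37.9 and 69.4 CPM.

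**Figure D5:**
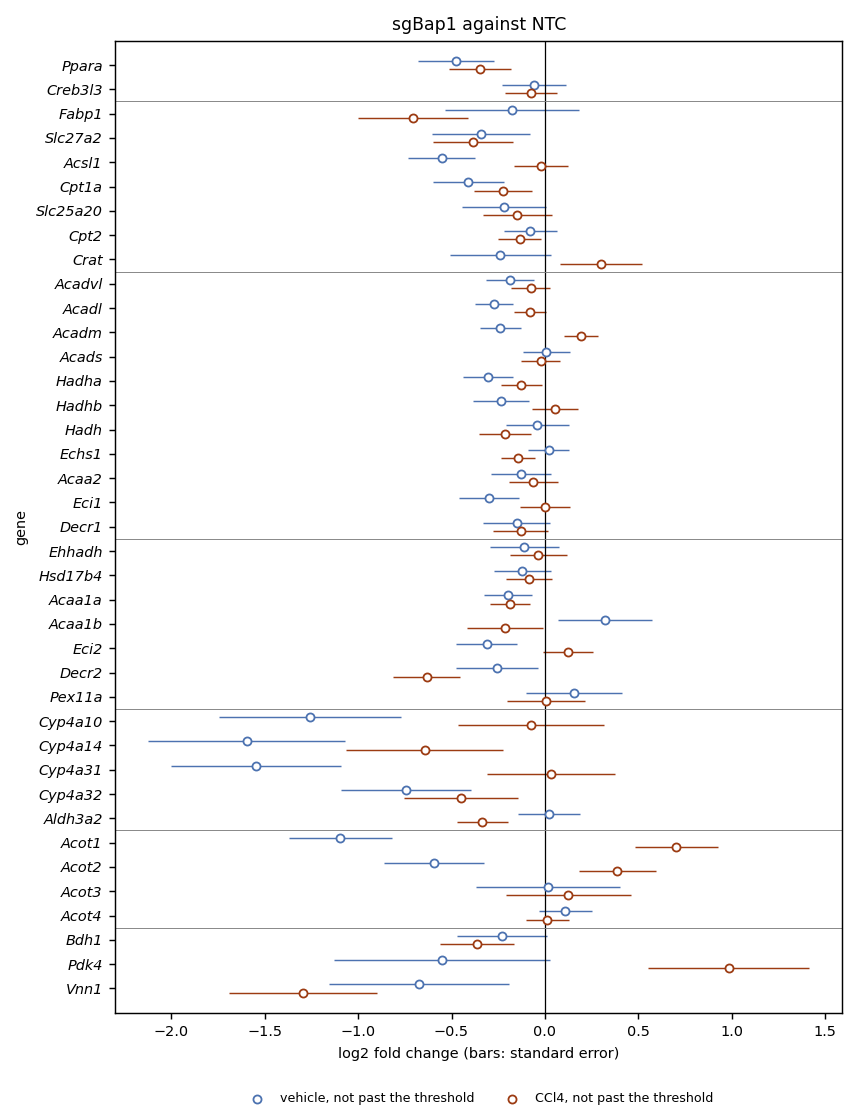
Log2 fold change of sgBap1 against NTC for each gene with vehicle (blue, 2 against 2 mice) and with CCl4 (brown, 3 against 3), with standard error bars. All symbols are open because no gene passed the threshold, the Cyp4a genes and Acot1 lie furthest left with vehicle, and Vnn1 lies furthest left with CCl4.

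With CCl4, sgBap1 and NTC livers were compared in 3 mice each. edgeR called 0 of 39, against 0.329% of all genes tested. DESeq2 called 1 lower, Decr2 (adjusted p = 0.0275), and called 1.8% of all genes it tested lower and 1.29% higher. At an unadjusted p under 0.05 there were 5: Fabp1, Decr2, Aldh3a2 and Vnn1 were lower (7.64% of all genes were) and Acot1 was higher (6.32%). Groups did not overlap in 6 genes, 5 of them lower (10.2% of all genes tested) and 1 higher (10.1%), and the median change was -0.08, against 0.00 over all genes. It was -0.0174 without sgBap1-CCl4 2, -0.143 without NTC-CCl4 1 and -0.20 without sgBap1-CCl4 3. This comparison shares no mouse with the one under vehicle, and over the 39 genes the changes in the 2 had a Pearson r of 0.01, as a description. The same value was not computed over all genes tested.

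Vnn1 showed the largest difference, 13.95, 21.98 and 38.7 CPM with sgBap1 against 51.4, 61.8 and 69.6 CPM with NTC (-1.29 ± 0.40, adjusted p = 0.215). Decr2 was 39.8, 61.01 and 72.04 CPM against 87.4, 90.1 and 90.4 CPM (-0.63 ± 0.18, adjusted p = 0.16). Fabp1 was 901, 1937 and 2382 CPM against 2792, 2851 and 2878 CPM (-0.71 ± 0.29, adjusted p = 0.322). Ppara (-0.35 ± 0.16) and Aldh3a2 (-0.34 ± 0.14) were also lower without overlap. In Vnn1, Decr2, Fabp1, Ppara and Aldh3a2 the lowest value was that of sgBap1-CCl4 2, and without it the differences were smaller, at -1.01 for Vnn1, -0.42 for Decr2, -0.39 for Fabp1, -0.20 for Ppara and -0.21 for Aldh3a2. The sgBap1 mice lay below the NTC mice in 22 of the 39 genes with vehicle and in 5 with CCl4, and Ppara, Decr2 and Vnn1 were in both. The share of all genes in both was not computed, so nothing particular to these genes was shown. Acadm was the 1 gene higher without overlap (0.19 ± 0.09), at 213, 215 and 225 CPM against 185, 187 and 199 CPM. Pdk4 differed by 0.98 ± 0.43 and by 0.38 without sgBap1-CCl4 2.

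Whether the response to CCl4 itself differed between genotypes was tested by the interaction. edgeR called 0 of 39, as it did of all genes tested (0%). DESeq2 called 1 higher, Acot1 (adjusted p = 0.000265), and called 0.697% of all genes it tested higher and 2.01% lower. At an unadjusted p under 0.05 there were 5, all with a response that was higher in sgBap1 livers (3.59% of all genes were, and 6.78% were lower): Acot1 (1.80 ± 0.36, adjusted p = 0.104), Cyp4a31 (1.58 ± 0.57, adjusted p = 0.38), Acot2 (0.98 ± 0.34, adjusted p = 0.332), Acsl1 (0.53 ± 0.23, adjusted p = 0.454) and Acadm (0.43 ± 0.14, adjusted p = 0.298). The interaction uses the same sgBap1-Veh and NTC-Veh mice as the comparison under vehicle, where Acot1, Cyp4a31, Acot2, Acsl1 and Acadm were all lower with sgBap1 without overlap.

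Other genes of the pathway, listed by function, were read beside the 40. Of 122 listed, 115 were tested. With CCl4 in NTC livers 73 fell (63.5%, against 26.6% of all genes tested) and 10 rose (8.7%, against 27.4%), with a median of -0.80. In sgBap1 livers 72 fell (62.6%, against 28%) and 14 rose (12.2%, against 29%), with a median of -0.85. Without sgBap1-CCl4 2, 113 were tested, and 68 fell and 15 rose in sgBap1 livers. In peroxisomal genes 21 of 24 fell in both genotypes, and in further mitochondrial oxidation genes 16 of 18. edgeR called 0 of the 115 in either sgBap1 comparison or in the interaction. Of all genes tested it called 0.406% with vehicle, 0.329% with CCl4 and 0% in the interaction.

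Rxra, the partner of PPARalpha in hepatocytes, fell 1.76-fold and 1.51-fold. The coactivator Ppargc1a fell 2.37-fold in NTC (adjusted p = 0.000356) and was not called in sgBap1 livers (-0.49, adjusted p = 0.0541). Plin2, which coats lipid droplets, rose by 1.01 in both. Angptl4, an inhibitor of lipoprotein lipase, fell by 0.68 in NTC and was not called in sgBap1 livers (0.08). The fatty acid receptor Cd36 (1.06 and 0.72) and the hormone Fgf21 (1.19 and 0.38) were not called.

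Cyp2e1, the pericentral enzyme that activates CCl4, fell 52.5-fold in NTC and 67.7-fold in sgBap1 livers. Sult2a8, a bile acid sulfotransferase, fell 28.8-fold and 31.0-fold, and Slc27a5, a bile acid and fatty acid CoA ligase, fell 6.97-fold and 7.97-fold. Lpin1, a phosphatidate phosphatase that also acts with PPARalpha, fell 8.17-fold and 2.98-fold. Nudt7, a peroxisomal CoA diphosphatase, fell 4.61-fold and 10.3-fold, and Cyp4f15 fell 5.02-fold and 5.34-fold. Cyp8b1, the sterol 12-alpha-hydroxylase of bile acid synthesis, changed by -4.17 in NTC (adjusted p = 0.0518) and fell by 4.69 in sgBap1 livers (adjusted p = 0.036), where it was not called without sgBap1-CCl4 2 (adjusted p = 0.125).

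Among those that rose were Oxct1, which burns ketone bodies and is low in hepatocytes (2.36 and 2.24), Cyp4f18, a leukocyte omega-hydroxylase (4.15 and 2.46), and Cidec, a lipid droplet protein (4.16 and 4.24). Cidea and Fabp4, also known from fat cells, rose in sgBap1 livers by 8.20 and 4.02. The level of both was highest in sgBap1-CCl4 2, at 29.4 and 256 CPM, against 0.0269 to 0.547 CPM for Cidea and 4.88 to 15.8 CPM for Fabp4 in the other 9 mice. Without that mouse the rises were 3.25 for Cidea, 1.22 for Fabp4, 2.79 for Cidec and 1.77 for Oxct1 on the log2 scale, all called.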

How the data were processed

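Liver RNA was sequenced from 10 mice (TruSeq Stranded mRNA kit). The authors aligned reads with STAR 2.7.6a, counted them with Salmon 1.4.0 against GENCODE vM25 (GRCm38) and deposited estimated counts (expected counts) per gene symbol without normalization, of which 9.22% were not whole. Each of the 10 columns carries the library name given in the labels.

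Counts were rounded to whole numbers. The model was fitted with edgeR 4.0.16 (R 4.3.3): filterByExpr with 4 groups, TMM, and 1 quasi-likelihood model of the 4 groups (glmQLFit, robust), with Benjamini-Hochberg adjustment and a threshold of 0.05. The script was tested on simulated data. CPM used TMM-scaled library sizes, and an SE is the log2 fold change divided by the square root of F. The comparisons of CCl4 with vehicle and of sgBap1 with NTC share mice in pairs and are given side by side. Alternatives were DESeq2 size factors, library size alone, other filters, a replicate block, the edgeR 3 method, only the groups compared, DESeq2 1.42.0 (Wald test) and each mouse left out.

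The genes and lists were chosen with earlier results of these data known. All 40 genes are named. Of other pathway genes, those named had the 8 largest changes per comparison past the threshold, groups that did not overlap and an average count of 100 or more, together with Rxra, Ppargc1a, Fgf21, Plin2, Cd36 and Angptl4. Some further genes of the rule are not reported here. Positions, exon lengths and 50-base stretches shared between genes are from GENCODE vM21. The planned comparison of protein sequences was replaced by the shared stretches.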

Additional observations from a re-analysis of the deposited data

Results flagged for a closer look

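Acot1 was separated in opposite directions by CCl4: every NTC-CCl4 mouse lay below both NTC-Veh mice, and every sgBap1-CCl4 mouse lay above both sgBap1-Veh mice. Of all genes tested, 35% were separated downward by CCl4 in NTC livers and 37.3% upward in sgBap1 livers. The share of all genes with both was not computed. For Acot1 the test of the difference gave 1.80 on the log2 scale (edgeR, adjusted p = 0.104), and DESeq2 gave an adjusted p of 0.000265. Over the fits that each left out 1 mouse, the adjusted p was 0.0607 to 0.323.

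Acadm was separated in opposite directions by genotype: both sgBap1-Veh mice lay below both NTC-Veh mice, and the 3 sgBap1-CCl4 mice lay above the 3 NTC-CCl4 mice. The test of the difference gave 0.43 on the log2 scale (edgeR, adjusted p = 0.298). Of all genes tested, 19.2% were separated downward by sgBap1 with vehicle and 10.1% upward with CCl4. The share of all genes with both was not computed. With groups of 2 and 3 mice, no formal test for single outlying mice was made. The mouse sgBap1-CCl4 2 stood apart by its adipocyte markers, and each mouse was left out in turn.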

How the results depend on the processing

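DESeq2 size factors, a mean of at least 10 counts and the edgeR 3 method changed no count of calls among the 39 genes by over 1.5 times. Scaling by library size alone gave 19 lower and 2 higher in NTC and 18 lower and 7 higher in sgBap1 livers with CCl4. Of all genes tested it gave 12.1% lower and 50% higher in NTC and 14% lower and 50.6% higher in sgBap1 livers. It reversed Cpt2 (0.0903), Crat (0.32), Acadl (0.0853), Hadha (0.13) and Vnn1 (0.10) in NTC and Cpt2 (0.0399), Acadl (0.28), Hadha (0.31), Hadhb (0.19) and Cyp4a14 (0.0240) in sgBap1 livers. Of these reversed values, those of Acadl and Hadha in sgBap1 livers were called higher. With CCl4 in NTC livers the count higher was 0 with no filter and 2 with only the groups compared or with DESeq2. With vehicle, the sgBap1 count lower was 2 with only the groups compared (Acot1 and Cyp4a10), where 0.0583% of all genes were lower. It was 2 with DESeq2 (1.07% of all genes). DESeq2 also called 1 lower with CCl4 (1.8% of all genes) and 1 higher in the interaction (0.697%).

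With a replicate block, 2 were higher and 31 lower in NTC livers (25.4% and 24% of all genes tested). In sgBap1 livers 4 were higher and 28 lower (26.9% and 25.4% of all genes). None of the 39 was called with that block in the sgBap1 comparisons. Same-numbered mice correlated at -0.149 to 0.102 over 13 pairs, 2 of them over 0.1. The correlations used deviations from group means. In groups of 2 mice these deviations mirror each other, so the 13 values are not independent and cannot exclude a pairing. The main fit did not take the numbers to pair the mice. Leaving out 1 mouse gave 26 to 33 lower and 0 to 2 higher in NTC, 24 to 31 lower and 3 to 4 higher in sgBap1 livers, and 0 to 1 lower for sgBap1 with vehicle. The count higher in NTC was 0 without NTC-Veh 1 and 2 without sgBap1-CCl4 2 or sgBap1-CCl4 3. Of the calls lower, 26 of 33 in NTC and 24 of 28 in sgBap1 livers stood whichever mouse was left out. Where a vehicle group kept 1 mouse, that mouse was assumed to vary like the others. The cause of these changes was not tested. The loose search for DR1 elements matched the promoters of 13 genes in place of 1. With 2 vehicle mice per genotype, small differences may go uncalled.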
